A study of Rattus norvegicus with 8 samples.

Results

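N27 cells, an immortalised line derived from rat mesencephalic neural cells and labelled as dopamine producing, were compared after exposure to manganese (Mn) and after exposure to 3-NPA. The comparison used 4 of the 8 single-colour expression arrays of the series, namely the 2 titled as Mn samples and the 2 titled as 3-NPA samples, and was described across all genes measured well above background in at least 1 of these groups. The Mn cells received 150 µM for 48 h. For 3-NPA neither the amount, the length of exposure nor the solvent is stated, and the name is taken here to mean 3-nitropropionic acid, so the values compare the treatments as given and not the compounds at matched exposure. The other 4 arrays were 2 of control cells, labelled only as control, and 2 of cells given MPP+ (250 µM for 48 h). They entered the fit to estimate the spread, and the control values stand beside the Mn and 3-NPA values below. All cells were of 1 line, transformed from rat embryonic mesencephalon. Nothing in the labels says that the 2 arrays of a group came from separate cultures, so the p-values measure the spread between these arrays, which may be technical.

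Mn is an essential trace metal and a cofactor of mitochondrial superoxide dismutase, and in excess it accumulates in the basal ganglia and is toxic to neurons. Cells take it up partly through carriers that also move iron and zinc. 3-Nitropropionic acid binds succinate dehydrogenase, the enzyme shared by the tricarboxylic acid cycle and the respiratory chain, and blocks it irreversibly. It is used in animals to produce lesions of the striatum. Cells under either kind of stress are known to engage common programmes, among them the ATF4 response to amino acid and mitochondrial stress, the NRF2 response to oxidants, NF-kB signalling and interferon signalling.

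Levels are given as the log2 of the processed spot signal minus the 75th percentile of the same array, so that 0 marks that percentile. Differences are Mn minus 3-NPA on the same scale, positive where Mn was higher, with the standard error (SE) of the limma fit and n = 2 arrays per group. A gene was called where the limma p-value, adjusted by Benjamini and Hochberg over all 16514 genes tested, was below 0.05. Of 58717 spots per array, 37964 and 38033 were well above background with Mn, against 40345 and 41354 with 3-NPA. The arrays correlated at 0.992 between the Mn replicates, at 0.995 between the 3-NPA replicates and from 0.977 to 0.982 between the groups. The 8 arrays shared 1 slide and 1 scan, but the Mn arrays were in row 1 and the 3-NPA arrays in row 2. The spot signals of the 3-NPA arrays were extracted from the image in run 2 and all others in run 1, per the file headers. Slide row, extraction run and group therefore cannot be told apart.

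Of the 16514 genes, 4941 (29.9%) were called, 2026 of them higher with Mn and 2915 higher with 3-NPA. The arrays of the groups did not overlap for any called gene, and they did not overlap for 67.2% of all genes. The larger differences lay mostly on the side of 3-NPA, since 1176 genes were called and at least 2-fold higher with 3-NPA and 291 with Mn. These 2-fold counts took signals near background as measured. At 4-fold the counts were 165 and 20. There, a lower group not well above background on either array was raised to the lowest signal well above background, if below it. The median difference over all genes was -0.06, and the median size of a called difference was 0.72. The direction of the calls moved with the level of the gene. Ranked by mean level into 4 bins of equal size, the genes of the lowest bin behaved unlike those of the highest. In the lowest bin, 24.9% were called higher with 3-NPA and 4.60% higher with Mn, while in the highest bin the shares were 8.65% and 16.4%. Among called genes, 487 were not well above background on either Mn array and 17 on neither 3-NPA array. Such genes passed the filter only through the other group. With genes kept only if well above background on all 4 arrays, 2411 were called higher with 3-NPA and 2077 higher with Mn. Mn accounted for 41.0% of the calls with this scaling, 47.7% after quantile normalization and 67.1% when each array was scaled by its median, which moved the median difference of all genes to 0.16. Without 3-NPA replicate 1 the count of calls was 2376, and without 3-NPA replicate 2 it was 2312. A fit without 1 array leaves 1 array in its group, so calls lost in it, here and in the lists below, may reflect less power. For single genes an exact permutation test of 2 arrays against 2 cannot give a two-sided p below 0.333.

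**Figure D1:**
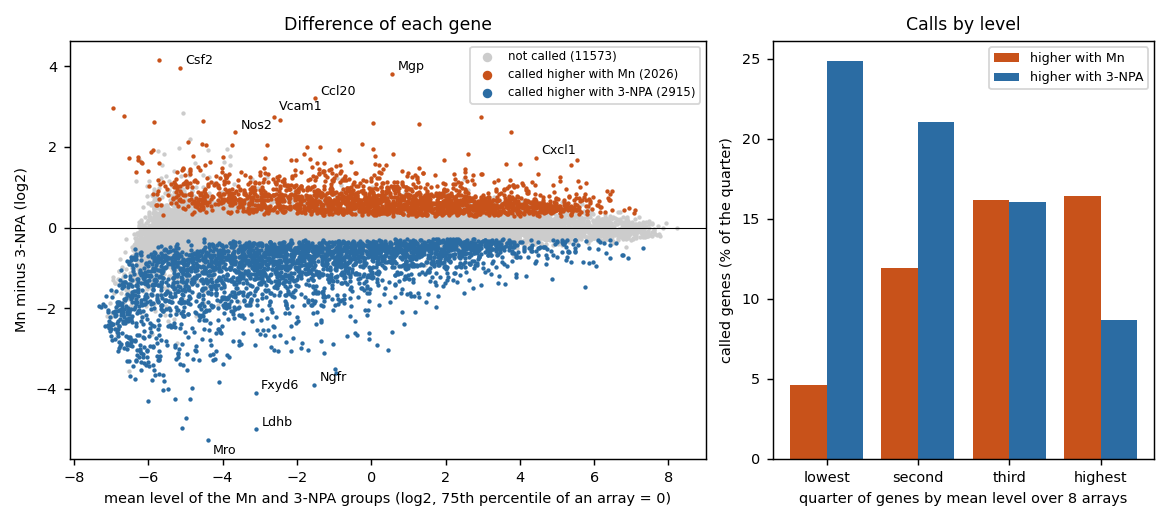
Left, the difference Mn minus 3-NPA (log2) of each of the 16514 genes against its mean level in the Mn and 3-NPA groups (log2, 75th percentile of an array = 0), coloured by call, with some genes named. Right, the share of genes called in each direction (%) in each of 4 equal bins of genes by mean level over the 8 arrays; calls higher with 3-NPA fall from 24.9% in the lowest bin to 8.65% in the highest, and calls higher with Mn rise from 4.60% to 16.4%.

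Each toxin is also given against the control arrays, to show which side of the direct difference moved. Mn against control gave 1356 calls (8.21%) and 3-NPA against control 6557 (39.7%). Both comparisons share the control arrays, so their values are set side by side and are not taken as separate evidence.

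The gene with the largest measured difference toward 3-NPA was Ldhb, which encodes the heart-type subunit of lactate dehydrogenase. Its levels were -5.49 and -5.71 with Mn and -0.65 and -0.54 with 3-NPA. The 3-NPA arrays were far above the Mn arrays, and neither control array was well above background. The difference was -5.01 ± 0.13 (SE), or 32.1-fold (limma adjusted p = 0.000105), read from a probe on rn4 chr4:180061921-180063949, a span longer than the probe itself. Ldha, the muscle-type subunit, differed in the other direction, with 6.92 and 6.96 on the Mn arrays and 6.04 and 6.03 on the 3-NPA arrays (difference 0.91 ± 0.17, limma adjusted p = 0.0104). The control arrays were at 6.69 and 7.16 for Ldha, overlapping with Mn and above 3-NPA. The call of Ldha between the toxins was lost in 2 of 22 alternatives.

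Other genes among the 15 largest differences toward 3-NPA had signal in both groups. Ngfr, the low-affinity neurotrophin receptor, was at -3.58 and -3.41 with Mn and at 0.41 and 0.40 with 3-NPA, a difference of -3.90 ± 0.09 or 14.9-fold (limma adjusted p = 0.000105; probe at rn4 chr10:84263082-84263141). The Mn arrays lay close to the control arrays (-3.25 and -3.24), and 3-NPA against control differed by 3.66. Afp, alpha-fetoprotein, was at -2.64 and -2.82 with Mn, 0.73 and 0.82 with 3-NPA and -2.73 and -2.87 in control cells. Cd7, a lymphocyte surface receptor, was at -2.71 and -2.79 with Mn, 0.85 and 0.85 with 3-NPA and -2.73 and -2.50 in control cells. In these 3 genes Mn was not called against control and the 3-NPA level stood apart. Fxyd6, a regulator of the sodium pump, was 17.0-fold higher with 3-NPA by its brightest probe, but its other probe differed by -0.54 only. Itga8, an integrin subunit, differed by -3.39 ± 0.15, with 1 of 2 Mn arrays well above background, and Mfap5, a microfibril protein, by -3.21 ± 0.13.

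For some of these genes the Mn level was only a bound, since the probe was not well above background on either Mn array. Fold differences are then given as "at least", against the lowest signal well above background on those arrays or the probe's own, whichever was higher. The p-values beside such bounds, here and below, come from the signals as measured and not from the bounds. Such probes passed the filter only through the higher group, which favours calls toward it. Mro was at least 19.5-fold higher with 3-NPA (limma adjusted p = 0.000115), Gsta1, a glutathione transferase, at least 10.8-fold (0.000202), Clic5, an intracellular chloride channel protein, at least 9.93-fold (0.00048), and Col20a1, a collagen, at least 9.46-fold (0.0002). A different pattern was seen for Ptprq, a receptor-type phosphatase, and Crym, a thyroid hormone binding protein, in which the Mn level was below control. Ptprq was at -6.94 and -5.08 with Mn, of which only 1 array was well above background, at -2.03 and -2.32 with 3-NPA and at -2.81 and -2.27 in control cells. The Mn arrays were thus the low ones, with a difference from control of -3.47 (limma adjusted p = 0.0204), while 3-NPA differed from control by 0.36 (0.638). Crym fell by 1.61 with Mn and rose by 1.52 with 3-NPA against control (limma adjusted p = 0.00771 and 0.00191), though only 1 of 2 arrays was well above background in each of the Mn and control groups.

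Toward Mn, the largest measured difference was that of Mgp, matrix Gla protein, a secreted inhibitor of mineralisation. Its levels were 2.63 and 2.33 on the Mn arrays and -1.37 and -1.29 on the 3-NPA arrays, and the control arrays (-1.16 and -1.35) lay with 3-NPA. The difference was 3.81 ± 0.13, or 14.0-fold (limma adjusted p = 0.000105; probe at rn4 chr4:173910827-173910886). Genes of the NF-kB and chemokine list among the 15 with the largest differences toward Mn are described below. Others were Wfdc21 (2.66 ± 0.28), a secreted whey acidic protein family member, Madcam1 (2.64 ± 0.21), an adhesion molecule, Foxq1 (2.06 ± 0.14), a transcription factor, and Derl3 (2.06 ± 0.11), which serves in the degradation of misfolded proteins of the endoplasmic reticulum. Wfdc21 was at -0.88 and -1.35 with Mn, against -3.54 and -4.02 with 3-NPA and -3.60 and -3.97 in control cells, so that only Mn stood apart. Foxq1 and Derl3 instead fell with 3-NPA, by 1.60 and by 1.62 against control (limma adjusted p = 0.000573 and 0.00028), while Mn differed from control by 0.47 and 0.44 (0.0941 and 0.0625). For Madcam1, only 1 of the 2 3-NPA arrays was well above background.

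**Figure D2:**
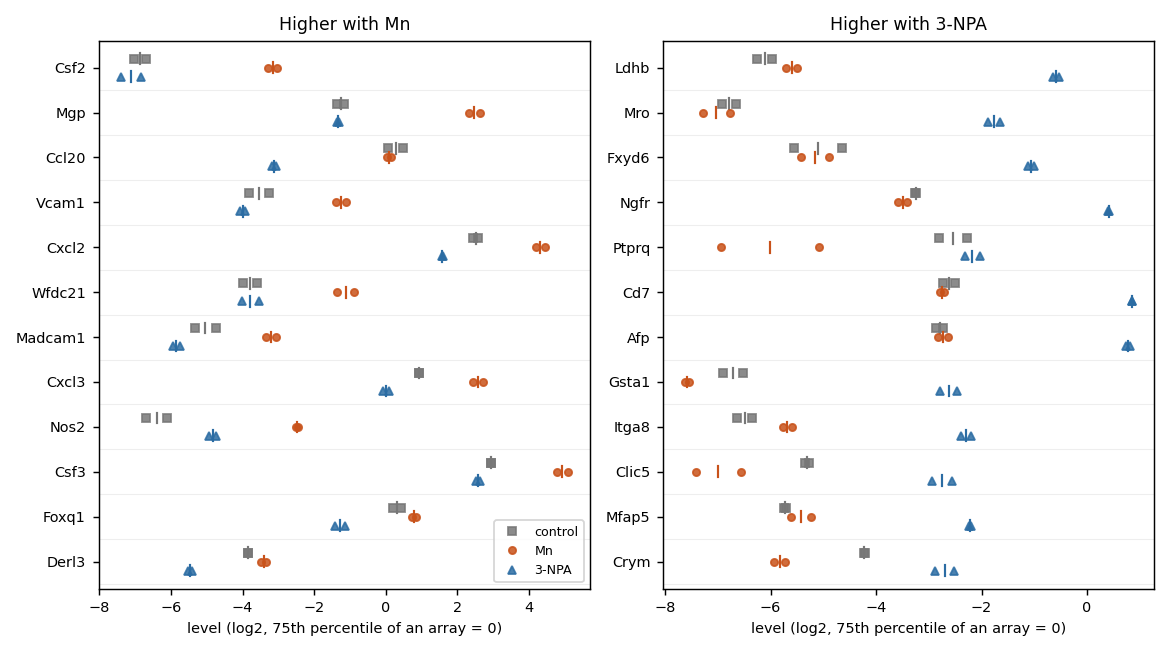
Levels (log2, 75th percentile of an array = 0) of 12 genes among the 15 with the largest difference in each direction, on each control array (grey squares), Mn array (orange circles) and 3-NPA array (blue triangles); vertical bars mark group means of 2 arrays. Mgp stands at 2.63 and 2.33 with Mn and between -1.37 and -1.16 in both other groups, and Ldhb at -0.65 and -0.54 with 3-NPA and at -5.49 and -5.71 with Mn.

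The 37 gene lists gave a picture by function, and their counts are read against the 12.3% of all genes called higher with Mn and the 17.7% called higher with 3-NPA. The lists and their members were chosen with earlier results of these data known, so the shares are description and not a test of a list. The list of NF-kB targets and chemokines had the highest share toward Mn. NF-kB is a transcription factor held inactive by IkB proteins and released by inflammatory signals, and its targets include chemokines, colony-stimulating factors and its own inhibitors. Of 30 members tested, 24 (80.0%) were called higher with Mn and 2 higher with 3-NPA, and the median difference was 1.00 against -0.06 over all genes. Without either 3-NPA array in turn, 21 and 22 members were called higher with Mn. Against control the median was 0.68 for Mn, with 17 members called up and 1 down, and -0.42 for 3-NPA, with 6 up and 15 down. By direction, 4.88% of all genes were called up and 3.33% down with Mn, and 23.2% up and 16.5% down with 3-NPA.

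Chemokines that attract neutrophils and lymphocytes were among the members with the largest differences. Cxcl2 was at 4.46 and 4.20 with Mn, 1.60 and 1.57 with 3-NPA and 2.45 and 2.59 in control cells. The control arrays lay between the toxins, as Mn raised Cxcl2 by 1.80 and 3-NPA lowered it by 0.94, and the direct difference was 2.74 ± 0.13 or 6.68-fold (limma adjusted p = 0.000169). Cxcl3 followed the same order, at 2.71 and 2.43 with Mn, 0.08 and -0.08 with 3-NPA and 0.92 and 0.94 in control cells. Ccl20, an attractant of lymphocytes and dendritic cells, differed by 3.21 ± 0.16 or 9.24-fold (limma adjusted p = 0.000195), and its second probe gave 3.23. Here the Mn arrays (0.04 and 0.14) overlapped with the control arrays (0.07 and 0.49) and the 3-NPA arrays were low (-3.05 and -3.19). The fall of Ccl20 with 3-NPA against control passed the test (limma adjusted p = 9.77e-05), while Mn was not called against control (0.472). Of the members outside the naming rule and named here after their values were seen, Cxcl1 differed by 1.73, Ccl7 by 1.61, Ccl2 by 1.54, Cxcl12 by 1.45 and Ptgs2, the inducible cyclooxygenase, by 1.99.

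Promoter windows of 3 of these chemokine genes are shown because they hold matches to an NF-kB motif, spelled GGG, then NN, then TTTCC without a gap, searched on both strands in the 250 bases before the RefSeq start of each gene (build GRCr8). The motif was present in 6 of the 17 windows found for the 24 members called higher with Mn, and in 1.28% of all 27457 windows. The matches overlap no other motif searched. A match describes letters in the window and not a site of binding. The list was made of NF-kB genes, known targets and chemokines, so a share above that of all windows does not bear on Mn. Only 1 window was found for the members called higher with 3-NPA, too few to compare. Capitals mark the matches, and each sequence runs 5′ to 3′ on the strand of the gene: Cxcl2 at chr14:17467256-17467505 on the minus strand, Cxcl1 at chr14:17479322-17479571 on the minus strand and Ccl20 at chr9:91836909-91837158 on the plus strand.
Cxcl2: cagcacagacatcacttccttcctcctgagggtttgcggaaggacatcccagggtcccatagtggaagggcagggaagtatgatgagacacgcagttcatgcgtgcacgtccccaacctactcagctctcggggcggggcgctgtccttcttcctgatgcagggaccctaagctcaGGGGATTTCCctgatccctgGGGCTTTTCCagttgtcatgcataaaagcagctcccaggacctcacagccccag
Cxcl1: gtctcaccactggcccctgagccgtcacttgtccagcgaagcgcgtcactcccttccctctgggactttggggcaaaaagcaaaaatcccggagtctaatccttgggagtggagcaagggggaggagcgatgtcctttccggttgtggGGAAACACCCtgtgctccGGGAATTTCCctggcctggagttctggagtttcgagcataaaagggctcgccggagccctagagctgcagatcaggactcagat
Ccl20: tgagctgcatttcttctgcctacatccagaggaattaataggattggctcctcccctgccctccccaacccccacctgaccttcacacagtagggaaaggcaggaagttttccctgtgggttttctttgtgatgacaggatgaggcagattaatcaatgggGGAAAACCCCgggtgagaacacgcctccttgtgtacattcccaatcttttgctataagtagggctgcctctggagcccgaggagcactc
In the Cxcl2 window the matches begin 74 and 54 bases before the start, in the Cxcl1 window 102 and 84 bases before it, and in the Ccl20 window 89 bases before it. Their direct differences between Mn and 3-NPA were 2.74, 1.73 and 3.21.

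Colony-stimulating factors and other effectors were also higher with Mn. Csf2, which drives the growth of granulocytes and macrophages, was at -3.28 and -3.03 on the Mn arrays and not well above background on the 3-NPA or control arrays, and was at least 10.5-fold higher with Mn than with 3-NPA (limma adjusted p = 0.00029; probe at rn4 chr10:39665887-39665946). Csf3, the granulocyte factor, was at 5.09 and 4.78 with Mn, 2.53 and 2.63 with 3-NPA and 2.95 and 2.95 in control cells. Mn stood above both other groups for these genes. Nos2, the inducible nitric oxide synthase, was at -2.49 and -2.45 with Mn and -4.74 and -4.94 with 3-NPA, and was not well above background in control cells. Mn was the higher of the toxins, and the control signal gives only a bound there (difference 2.36 ± 0.20, limma adjusted p = 0.000763). Vcam1, an endothelial adhesion molecule that other cells make under inflammatory signals, was at -1.11 and -1.40 with Mn, -4.06 and -3.94 with 3-NPA and -3.81 and -3.26 in control cells. Only the Mn arrays of Vcam1 were raised (difference 2.75 ± 0.20, limma adjusted p = 0.000502). The exceptions in the list were Cxcl10 (-0.98 ± 0.13) and Ccl5 (-0.84 ± 0.15), both higher with 3-NPA (limma adjusted p = 0.00309 and 0.00868) and both also known to respond to interferon.

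Interferon-responsive genes leaned the other way. These genes encode antiviral proteins and are induced through STAT and IRF factors. Of 26 members tested, 12 (46.2%) were called higher with 3-NPA and 2 (7.69%) higher with Mn, and the median was -0.33. Without either 3-NPA array in turn, 11 members were called higher with 3-NPA. Against control the median was 0.32 with Mn (8 called up, 0 down) and 0.68 with 3-NPA (19 up, 1 down). Rsad2, an antiviral radical enzyme also called viperin, was at -0.74 and -0.40 in control cells, 1.90 and 1.48 with Mn and 3.25 and 3.36 with 3-NPA. Its levels were above control with both toxins and highest with 3-NPA (direct difference -1.62 ± 0.18, limma adjusted p = 0.00178). Ifit3, an antiviral RNA-binding family member, differed by -2.13 ± 0.22 and Oasl, an oligoadenylate synthetase-like protein, by -1.38 ± 0.14, which made them 4.38-fold and 2.60-fold higher with 3-NPA. Parp14 (0.93 ± 0.08), an ADP-ribosyl transferase, and Ifi27 (0.38 ± 0.10) were the members higher with Mn, of which Ifi27 lost its call in 10 of 22 alternatives.

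**Figure D3:**
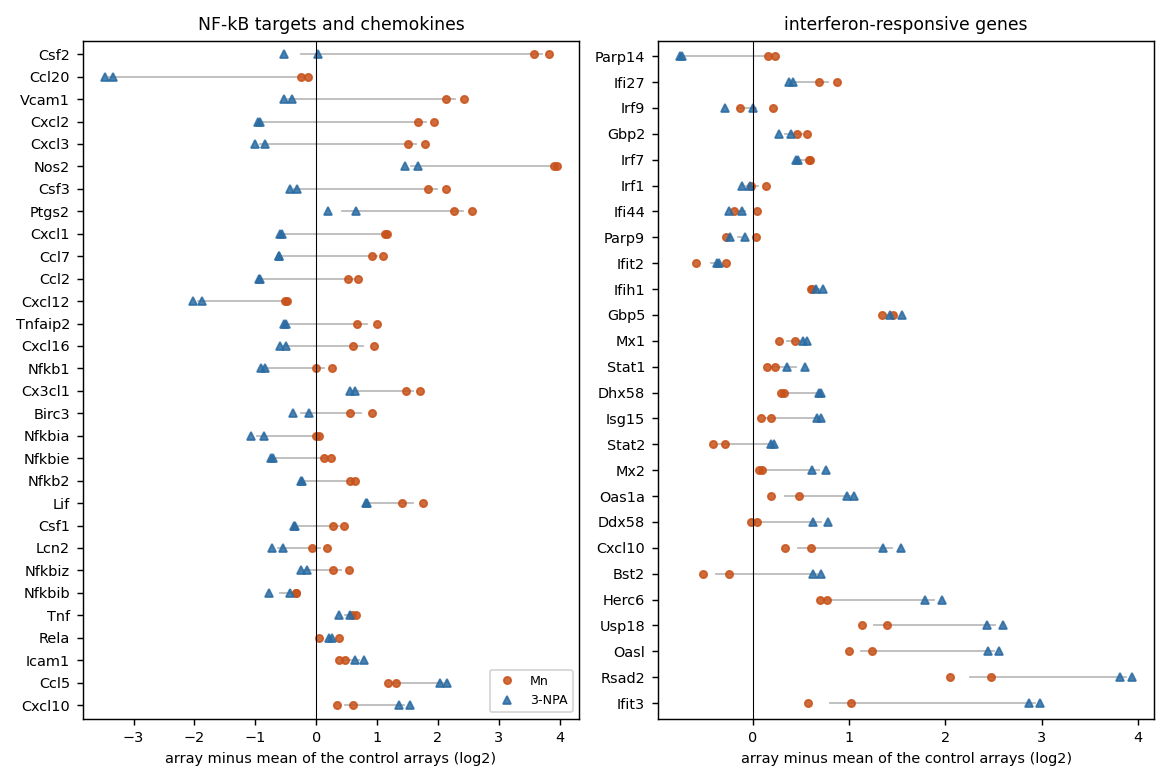
Each Mn array (orange circles) and 3-NPA array (blue triangles) minus the mean of the 2 control arrays (log2) for the 30 members of the NF-kB and chemokine list (left) and the 26 interferon-responsive genes (right), ordered by the difference Mn minus 3-NPA; grey lines join the group means. Cxcl2 lies at 1.80 with Mn and -0.94 with 3-NPA, and Rsad2 at 2.26 and 3.88.

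Antigen presentation had calls in both directions. Of 22 members tested, 6 were called higher with each toxin, and the list median of -0.15 turned to 0.07 when arrays were scaled by their median. The 6 called higher with 3-NPA were RT1-Db1, RT1-Da, RT1-DMa, RT1-DMb, Cd74 and Ciita, all known from class II, the pathway that displays engulfed proteins. A difference between the classes was not tested. On both Mn arrays 20 of the 22 members were well above background. The others, RT1-Da among them, passed the filter only through the 3-NPA arrays, which favours calls toward 3-NPA. RT1-Db1, a class II beta chain, was at -3.75 and -3.61 with Mn, -0.67 and -0.56 with 3-NPA and -4.30 and -4.15 in control cells, a difference of -3.06 ± 0.10 or 8.36-fold (limma adjusted p = 0.000105; second probe -2.12). Cd74, the class II invariant chain, was at -4.29 and -4.48 with Mn and -2.93 and -2.87 with 3-NPA, and was not well above background in control cells. The 3-NPA arrays were the highest for both genes. RT1-Da was at least 1.70-fold higher with 3-NPA, as it was not well above background with Mn. The 6 called higher with Mn were Psmb8, Psmb9, Psmb10, Psme1, Psme2 and Tapbp, known from the cutting of proteins and the loading of peptides for class I, while Tap1, Tap2 and B2m were not called. The members beyond 3 per direction were named after their values were seen. Psmb10 was at 4.99 and 4.58 with Mn, 3.24 and 3.17 with 3-NPA and 4.72 and 4.86 in control cells, and Psmb8 and Psme2 differed by 0.90 ± 0.13 and 0.84 ± 0.09. The first and second of these are catalytic subunits of the immunoproteasome and the third belongs to its activator. In all 3, Mn was not called against control (limma adjusted p from 0.0917 to 0.982) and 3-NPA fell, by 1.59, by 1.37 and by 0.85. Class II and class I genes of the rat belong to large families of similar sequence, and binding of a probe to related copies was not tested.

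The complement list, with 15 members tested, had 8 (53.3%) called higher with 3-NPA and 3 higher with Mn, at a median of -0.65. Only 12 of the 15 were well above background on both Mn arrays, so 3 members entered through the 3-NPA arrays alone. Among the 12 measured on all 4 arrays, 5 were called higher with 3-NPA and 3 higher with Mn, at a median of -0.23, which was also the median with no filter. Without either 3-NPA array in turn, 7 were called higher with 3-NPA and 1 higher with Mn. Cfd, the protease that starts the alternative pathway, was at -3.96 and -3.74 with Mn, -1.45 and -1.29 with 3-NPA and -3.54 and -2.82 in control cells. Cfi, an inactivating protease, was at least 2.71-fold higher with 3-NPA, and Cd59b, which blocks the lytic pore, differed by -0.83 ± 0.09. Cfb, the substrate of Cfd, differed by 1.13 ± 0.12 in favour of Mn (limma adjusted p = 0.00168), as 3-NPA lowered it by 1.00 against control. C3 differed by 0.41 ± 0.11 and C5 by 0.94 ± 0.19, calls lost in 9 and 4 of 22 alternatives.

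More NRF2 targets were called higher with 3-NPA than with Mn, though 16 of 29 were not called. NRF2 is a transcription factor that KEAP1 holds down until oxidants or electrophiles release it, and its targets make glutathione, detoxify quinones and supply NADPH. Of 29 members tested, 12 (41.4%) were called higher with 3-NPA and 1 (3.45%) higher with Mn, at a median of -0.44. Without either 3-NPA array in turn, 8 were called higher with 3-NPA. Gsta4, a transferase for lipid aldehydes, was at 2.10 and 1.90 with Mn, 3.45 and 3.56 with 3-NPA and 1.78 and 1.81 in control cells (difference -1.51 ± 0.11, 2.85-fold, limma adjusted p = 0.000451). Srxn1, sulfiredoxin, was at 2.85 and 2.60 with Mn, 4.12 and 4.10 with 3-NPA and 2.48 and 2.46 in control cells. For both genes Mn lay near control and 3-NPA stood above. Osgin1, an oxidative stress-induced growth inhibitor, was at -5.28 and -4.95 with Mn and -3.05 and -3.18 with 3-NPA, and Nqo1, quinone reductase, differed by -1.46 ± 0.14. Nqo1 was also raised by Mn, at 1.17 above control against 2.63 for 3-NPA (limma adjusted p = 0.00851 and 0.000146). Slc7a11, the cystine carrier, rose with both toxins, by 3.43 and 3.87, and differed between them by -0.44 ± 0.10 (limma adjusted p = 0.0234), a call lost in 10 of 22 alternatives. Hmox1, heme oxygenase, was not called (difference -0.59 ± 0.22, limma adjusted p = 0.0895). The single member higher with Mn was Sod2, the mitochondrial superoxide dismutase that uses Mn as its metal, at 4.84 and 4.95 with Mn, 3.77 and 3.77 with 3-NPA and 4.60 and 4.95 in control cells (difference 1.13 ± 0.13, limma adjusted p = 0.00213). Sod2 is also known as an NF-kB target, and here it fell by 1.01 with 3-NPA and lay at control with Mn.

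**Figure D4:**
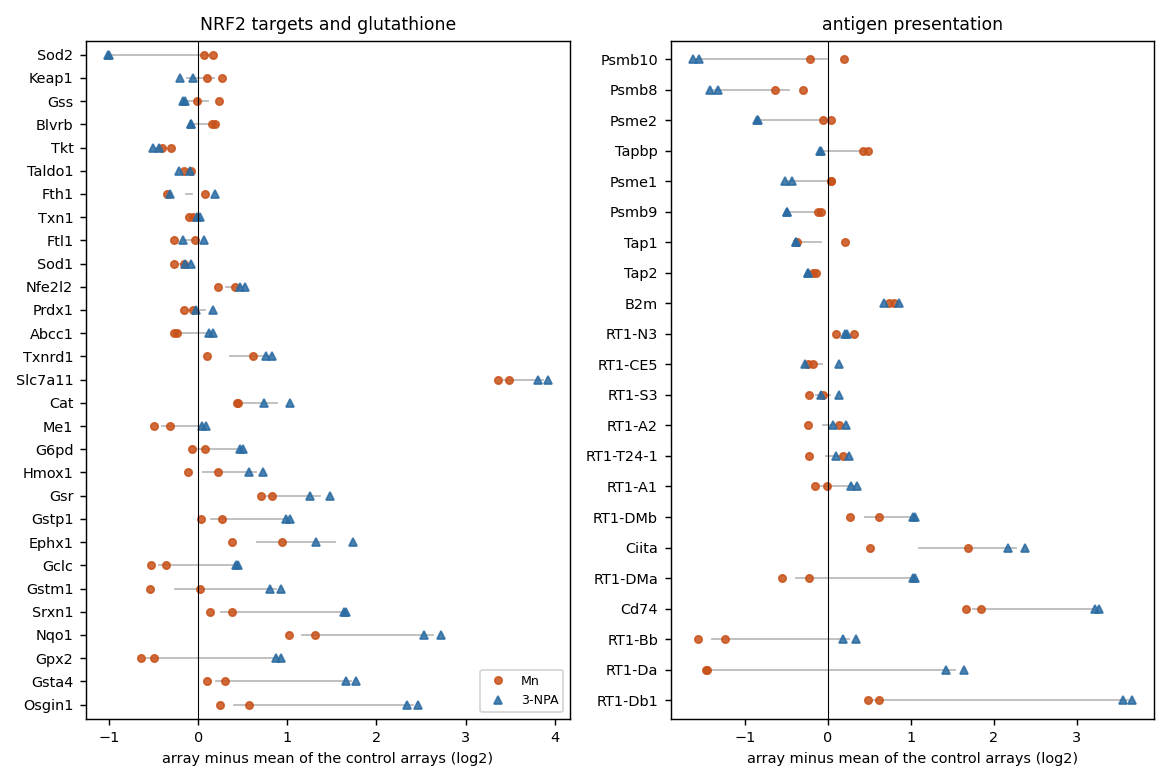
Each Mn array (orange circles) and 3-NPA array (blue triangles) minus the mean of the 2 control arrays (log2) for the 29 NRF2 and glutathione genes (left) and the 22 antigen presentation genes (right), ordered by the difference Mn minus 3-NPA; grey lines join the group means. Gsta4 lies at 0.20 with Mn and 1.71 with 3-NPA, and Psmb10 at -0.01 and -1.59.

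Metal handling was a point of interest because 1 of the toxins is a metal. Metallothioneins are small metal-binding proteins induced by zinc and other ions through the factor MTF-1. Mt1 was at 5.05 and 4.98 with Mn, 6.53 and 6.46 with 3-NPA and 4.51 and 4.55 in control cells, so that both toxins lay above control and 3-NPA highest (difference -1.48 ± 0.08, 2.79-fold, limma adjusted p = 0.000252). Mt3, the neural form, was at -2.52 and -2.79 with Mn and -0.95 and -0.91 with 3-NPA, and was not well above background in control cells. Mt2A was not called between the toxins (-0.24 ± 0.10, limma adjusted p = 0.133), and its second probe gave -0.69. Slc30a1, the zinc exporter, which MTF-1 also controls, was at -2.18 and -2.10 with Mn, -0.96 and -0.98 with 3-NPA and -1.81 and -1.80 in control cells. Slc40a1, ferroportin, which exports iron and can export Mn, was at -2.42 and -2.57 with Mn, -0.23 and -0.16 with 3-NPA and -1.74 and -1.56 in control cells. Ferroportin thus fell by 0.84 with Mn and rose by 1.46 with 3-NPA against control (limma adjusted p = 0.00892 and 0.000347), and the direct difference was -2.30 ± 0.10 or 4.93-fold.

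Among carriers that bring metals in, Slc11a2, the divalent metal transporter, was at 4.39 and 4.41 with Mn, 3.64 and 3.71 with 3-NPA and 4.66 and 4.66 in control cells (difference 0.72 ± 0.08, limma adjusted p = 0.00188), though its 2 other probes differed by -0.06 and 0.57. Slc39a14, a zinc, iron and Mn importer, was at -4.25 and -4.48 with Mn and -4.18 and -4.54 with 3-NPA and was not called (limma adjusted p = 0.994). Slc39a8, a related importer, was at least 1.76-fold higher with 3-NPA, but this call was lost in 7 of 21 alternatives. Slc30a10, the Mn exporter, was not well above background on any array. Over the list of metallothioneins and zinc or manganese transport, 5 of 20 members were called higher with Mn and 6 higher with 3-NPA, and 2 were higher with Mn without either 3-NPA array. The median of -0.06 turned positive after quantile normalization (0.04) or median scaling (0.16). In the iron list, 2 of 17 (11.8%) were called higher with Mn and 3 (17.6%) higher with 3-NPA. These shares lay near the 12.3% and 17.7% of all genes. Tfrc, the transferrin receptor (0.42 ± 0.12), was among those higher with Mn, a call lost in 11 of 22 alternatives.

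The Mt1 promoter window is shown since it holds repeated matches to the core of the metal response element, TGCNCNC, on either strand. It has 7 matches, in capitals, the first beginning 176 and the last 26 bases before the start, at GRCr8 chr19:10832976-10833225 on the minus strand. They overlap no other motif searched. The same letters occur at least once in 43.9% of all windows, which is read beside the 7 matches here.
Mt1: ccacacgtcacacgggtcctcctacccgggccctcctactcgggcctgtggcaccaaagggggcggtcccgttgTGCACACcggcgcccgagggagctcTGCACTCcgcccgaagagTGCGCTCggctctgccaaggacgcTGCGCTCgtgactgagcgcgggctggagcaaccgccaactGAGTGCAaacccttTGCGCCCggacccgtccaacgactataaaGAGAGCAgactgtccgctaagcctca

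For succinate dehydrogenase, the target of 3-nitropropionic acid, none of the 4 subunits was called between the toxins. The differences were -0.26 ± 0.09 for Sdha, 0.27 ± 0.09 for Sdhb, 0.11 ± 0.17 for Sdhc and -0.08 ± 0.09 for Sdhd (limma adjusted p = 0.0892, 0.0779, 0.663 and 0.533). Sdhb fell by 0.41 with 3-NPA against control (limma adjusted p = 0.0159). Within the 9 tested genes of this list, 2 were called higher with Mn, the assembly factor Sdhaf1 (0.44 ± 0.09, lost in 6 of 22 alternatives) and Sucla2, a subunit of succinyl-CoA synthetase (0.67 ± 0.09), which makes the substrate of the enzyme. Sucla2 was at 1.84 and 1.88 with Mn, 1.12 and 1.27 with 3-NPA and 2.32 and 2.34 in control cells, below control with both toxins.

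Of 36 complex I genes tested, 8 were called higher with Mn and 0 higher with 3-NPA, at a median of 0.20. Calls lost without 1 of the 3-NPA arrays cannot show what the count rests on, since that group then has 1 array and the test less power. Examples of the called genes were Ndufs3 (0.42 ± 0.08), a core subunit, and Ndufb3 (0.43 ± 0.08), an accessory subunit. They were 1.34-fold and 1.35-fold higher with Mn, and each call was lost in 3 of 22 alternatives. For 3-NPA against control, 14 complex I genes were called down and 0 up, and for Mn 0 were called in either direction by limma. Of 67 mitochondrial ribosomal proteins, 13 were called higher with Mn and 2 higher with 3-NPA, and 5 and 6 were called higher with Mn without either 3-NPA array. Cox6a2, the heart and muscle form of a cytochrome oxidase subunit, stood apart from its complex, at -0.73 and -1.18 with Mn, 0.18 and 0.23 with 3-NPA and -3.19 and -3.34 in control cells. It rose by 2.31 with Mn and by 3.47 with 3-NPA, and was 2.24-fold higher with 3-NPA (limma adjusted p = 0.00358). In contrast, 0 of 78 cytosolic ribosomal proteins were called in either direction by limma, at a median of -0.09 that turned to 0.13 with median scaling.

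Of 25 genes of glucose uptake and glycolysis, 8 were called higher with Mn and 3 with 3-NPA, the latter including Ldhb. Without either 3-NPA array 3 were called higher with Mn. Pgk1, phosphoglycerate kinase, was at 6.80 and 6.70 with Mn, 6.02 and 6.02 with 3-NPA and 6.76 and 6.94 in control cells. Pdk1, the kinase that shuts pyruvate dehydrogenase, differed by 1.04 ± 0.17 (limma adjusted p = 0.00679) and Slc16a3, a lactate exporter, by 0.69 ± 0.09. For these 3 genes Mn was not called against control and 3-NPA was below it. Slc2a1, the glucose carrier, was not called (0.03 ± 0.09, limma adjusted p = 0.805). Of the 2 genes often used as references, Actb was not called (0.19 ± 0.12, adjusted p = 0.263) and Gapdh was at 0.33 ± 0.11 (limma adjusted p = 0.0639), with its 2 other probes at 0.47 and 0.59.

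Proteasome subunits, the core of regulated protein breakdown, included 13 of 33 (39.4%) called higher with Mn and 0 higher with 3-NPA, at a median of 0.29. The counts were 4 and 3 without 3-NPA replicates 1 and 2. Psmd14, the subunit that removes ubiquitin, was at 0.41 and 0.49 with Mn, -0.47 and -0.57 with 3-NPA and 0.74 and 0.87 in control cells (difference 0.97 ± 0.09, limma adjusted p = 0.00115). Against control, 21 of the 33 were called down with 3-NPA and 0 with Mn. In the endoplasmic reticulum, Hspa5, the chaperone BiP, was at 4.97 and 4.99 with Mn, 4.15 and 4.33 with 3-NPA and 5.10 and 5.02 in control cells, and Xbp1, a transcription factor of the unfolded protein response, differed by 1.04 ± 0.14. Mn lay at the control level of Hspa5 and 3-NPA below it. Over that list 4 of 26 members were called higher with Mn and 3 with 3-NPA. Of 20 aminoacyl tRNA synthetases, which charge tRNAs with amino acids, 5 were called higher with Mn and 0 with 3-NPA, led by Farsb (0.82 ± 0.08), Farsa (0.66 ± 0.08) and Vars1 (1.01 ± 0.12).

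The ATF4 response supplies amino acids and enters an apoptotic arm under lasting stress. Against control, more genes of its list were called up than down with both toxins, while the activity of ATF4 was not measured. Of 35 members, 19 were called up and 1 down with Mn, and 27 up and 2 down with 3-NPA. Directly compared, 9 (25.7%) were called higher with 3-NPA and 1 (2.86%) higher with Mn, at a median of -0.22. The count higher with 3-NPA was 2 without either 3-NPA array and 4 with median scaling. Ddit3, the transcription factor CHOP, was at 1.95 and 1.67 with Mn, 3.01 and 2.98 with 3-NPA and 1.28 and 1.24 in control cells (difference -1.19 ± 0.11, limma adjusted p = 0.00112). It rose by 0.55 with Mn and by 1.74 with 3-NPA. Stc2, stanniocalcin, differed by -1.91 ± 0.22 and Gdf15, a secreted stress hormone, by -1.10 ± 0.25 (limma adjusted p = 0.00206 and 0.0205). Gdf15 was at 2.24 and 1.74 with Mn, within reach of the control arrays (2.02 and 1.92), and at 3.18 and 3.00 with 3-NPA. Its call between the toxins was lost in 3 of 22 alternatives. Atf4 itself, Asns (asparagine synthetase) and Trib3 (a pseudokinase induced by CHOP) were not called between the toxins, at -0.23 ± 0.10, -0.14 ± 0.09 and -0.39 ± 0.13 (limma adjusted p = 0.127, 0.316 and 0.0759).

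Genes of DNA replication and histones had more calls toward Mn than toward 3-NPA. Of 39 replication and nucleotide synthesis genes, 12 (30.8%) were called higher with Mn and 1 higher with 3-NPA, at a median of 0.28, with 5 and 4 higher with Mn when either 3-NPA array was left out. Tk1, thymidine kinase, was at 2.82 and 2.73 with Mn, 1.99 and 1.92 with 3-NPA and 3.08 and 2.97 in control cells. Uhrf1, which maintains DNA methylation, differed by 0.74 ± 0.09. The exception was the helicase subunit Mcm2 (-0.52 ± 0.09), a call lost in 4 of 22 alternatives. Of 38 mitotic genes, 6 (15.8%, near the 12.3% of all genes) were called higher with Mn and 1 with 3-NPA, and 1 was higher with Mn when either 3-NPA array was left out. Of 23 histone genes, 12 (52.2%) were called higher with Mn and 1 with 3-NPA, at a median of 0.57, and 8 were called higher with Mn without either 3-NPA array. Hist1h2an was at 0.08 and 0.12 with Mn, -1.80 and -1.84 with 3-NPA and -0.61 and -0.32 in control cells, a difference of 1.92 ± 0.12 or 3.78-fold (limma adjusted p = 0.000306). Hist1h2ai differed by 1.61 ± 0.11 in the same order. The histone median against control was -0.46 with Mn and -0.99 with 3-NPA. Histone genes of a cluster are nearly identical in sequence, so single members are uncertain. H1f0, a linker histone of resting cells, was the member higher with 3-NPA (-0.55 ± 0.10).

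Single growth arrest and death genes differed, some in each direction. Cdkn1a, the inhibitor of cyclin-dependent kinases known as p21, was at 2.52 and 2.27 with Mn, 3.21 and 3.35 with 3-NPA and 0.49 and 0.29 in control cells. It rose with both toxins and was 1.85-fold higher with 3-NPA (difference -0.89 ± 0.13, limma adjusted p = 0.00459), though its second probe differed by -0.14. Fas, a death receptor, was at -2.18 and -2.08 with Mn, -3.64 and -3.26 with 3-NPA and -3.88 and -3.35 in control cells, so only Mn stood apart (difference 1.32 ± 0.20, limma adjusted p = 0.00568). Among 28 genes of the BCL2 family and caspases, 5 (17.9%) were called higher with Mn and 3 (10.7%) higher with 3-NPA. The 28.6% called in all lay near the 29.9% of all genes. Those toward 3-NPA were the pro-apoptotic BH3-only genes Hrk (-1.88 ± 0.09; second probe -0.07), Bmf (2.83-fold) and Bik (-0.94 ± 0.12), and they were called in each fit that left out 1 array. Casp12, a caspase of the endoplasmic reticulum, was higher with Mn (0.93 ± 0.12). Mdm2, a p53 target, was raised by both toxins and not called between them (-0.33 ± 0.16, limma adjusted p = 0.173).

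Early response and signalling genes were split as well. Of 28 immediate early genes, which respond to stimuli without new protein synthesis, 8 were called higher with Mn and 6 with 3-NPA, and the counts were 4 and 3 without 3-NPA replicate 1 and 5 and 4 without replicate 2. Junb was at 6.54 and 6.18 with Mn, 4.75 and 4.66 with 3-NPA and 6.14 and 6.12 in control cells, a difference of 1.66 ± 0.13 or 3.16-fold (limma adjusted p = 0.000662). Fos, Ier2 and Ier3 also lay on the side of Mn, at 0.89 ± 0.19, 1.26 ± 0.14 and 1.26 ± 0.09. Nr4a3, an orphan nuclear receptor, was at -2.45 and -2.68 with Mn, -0.60 and -0.69 with 3-NPA and -2.89 and -2.36 in control cells, but its second probe differed by 0.48 in the other direction. Dusp6, a phosphatase that restrains ERK, was at 3.32 and 2.98 with Mn, 1.99 and 2.01 with 3-NPA and 1.05 and 1.03 in control cells, whereas Areg, a ligand of the EGF receptor, was higher with 3-NPA (-1.51 ± 0.15). Id1, an inhibitor of basic helix-loop-helix factors and a target of BMP signalling, was at 4.42 and 4.39 with Mn, 2.87 and 2.81 with 3-NPA and 4.64 and 4.81 in control cells (difference 1.56 ± 0.09, limma adjusted p = 0.000306). Id2, of the same family, fell with both toxins against control, by 2.49 with 3-NPA, and was 0.77 and 0.63 with 3-NPA against 3.07 and 3.32 in control cells. Dll1, a Notch ligand, was at least 3.88-fold higher with 3-NPA.

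Of 29 genes of cholesterol synthesis and uptake, 11 (37.9%) were called higher with Mn and 3 higher with 3-NPA, and against control 15 were called down with Mn and 20 with 3-NPA. Without 3-NPA replicates 1 and 2 in turn, 6 and 7 were higher with Mn. Hmgcs1, an early enzyme of the pathway, was at 5.54 and 5.47 with Mn, 4.91 and 4.85 with 3-NPA and 6.03 and 6.09 in control cells. Insig1, which retains the sterol-sensing complex, was at -0.17 and -0.21 with Mn, -0.85 and -0.73 with 3-NPA and 1.61 and 1.44 in control cells. In both genes the order was control, Mn and 3-NPA, with direct differences of 0.62 ± 0.09 and 0.60 ± 0.10 (limma adjusted p = 0.00378 and 0.0068). Fdft1, squalene synthase, and Abca1, a cholesterol exporter, differed in the other direction (-0.95 ± 0.14 and -0.75 ± 0.17). The call of Abca1 was lost in 5 of 22 alternatives. Of 33 lysosome and autophagy genes, 9 were called higher with 3-NPA and 3 with Mn, and 5 higher with 3-NPA without either 3-NPA array. Gpnmb, a lysosomal glycoprotein, was at 1.04 and 0.86 with Mn, 2.69 and 2.61 with 3-NPA and -1.15 and -1.16 in control cells.

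Matrix genes had calls in both directions. Among 28 collagens and basement membrane genes, 7 were called higher with Mn and 6 with 3-NPA, and 2 and 3 were higher with Mn when 3-NPA replicates 1 and 2 were left out. Col4a1, a basement membrane collagen, was on the side of Mn (1.05 ± 0.15), and the collagen subunit Col6a2 (-1.52 ± 0.11) and Eln, elastin (-1.82 ± 0.13), on the side of 3-NPA. Col4a1 was at 4.40 and 4.25 with Mn, 3.25 and 3.31 with 3-NPA and 3.71 and 4.15 in control cells. Srpx2, a secreted matrix protein, was at -1.06 and -1.34 with Mn, -2.81 and -2.95 with 3-NPA and not well above background in control cells. Spp1, osteopontin, was higher with 3-NPA (-1.34 ± 0.10), and its Mn level lay at control. Adamts1, a matrix protease, was at 0.93 and 1.07 with Mn, -0.86 and -0.71 with 3-NPA and 2.29 and 2.24 in control cells, and Timp1, a protease inhibitor, differed by 0.95 ± 0.08.

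The labelled cell type was checked against dopaminergic and neural genes. Th, tyrosine hydroxylase, was at -1.87 and -2.02 with Mn, -1.77 and -1.79 with 3-NPA and -1.84 and -1.93 in control cells, and it was not called (-0.17 ± 0.10, limma adjusted p = 0.243). Nr4a2, a dopaminergic transcription factor, was not called either (0.22 ± 0.12, limma adjusted p = 0.225). Slc6a3, the dopamine transporter, was not well above background on any array, so its level has only an upper bound and this defining marker was not detected. Of 17 dopamine neuron genes tested, 7 (41.2%) were called higher with 3-NPA and 0 higher with Mn by limma, and 6 and 3 were called without 3-NPA replicates 1 and 2. Of the 17, 15 were well above background on both Mn arrays. The others, Aldh1a1 and Pitx3, passed the filter only through the 3-NPA arrays, which favours calls toward 3-NPA. The list median of -0.17 turned positive with median scaling (0.05), quantile normalization (0.07) and no filter (0.04). Aldh1a1, a dehydrogenase of dopamine metabolism, was not well above background with Mn, at -3.70 and -3.87 with 3-NPA and at -4.08 and -3.60 in control cells, and was at least 4.85-fold lower with Mn than with 3-NPA (limma adjusted p = 0.000658). Uchl1, a neuronal ubiquitin hydrolase, was at 0.23 and 0.05 with Mn, 2.22 and 2.25 with 3-NPA and -0.24 and -0.25 in control cells (difference -2.10 ± 0.09, 4.28-fold, limma adjusted p = 0.000154). Pitx3, a transcription factor of these neurons, was at least 3.41-fold higher with 3-NPA.

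Of 13 tested genes of the neuronal cytoskeleton and synapse, 7 (53.8%) were called higher with 3-NPA and 0 higher with Mn by limma, at a median of -0.60, and 4 were called without either 3-NPA array. The median was -0.29 with normexp background correction and -0.11 with no filter, and 11 of the 13 were well above background on both Mn arrays. Among those 11 measured on all 4 arrays, 6 were called higher with 3-NPA, at a median of -0.44. Mapt, the axonal protein tau, was at 1.28 and 1.35 with Mn, 2.63 and 2.74 with 3-NPA and 1.32 and 1.12 in control cells, and Tubb3, a neuronal tubulin, was at 1.31 and 0.87 with Mn, 2.17 and 2.03 with 3-NPA and 0.28 and 0.37 in control cells. Markers of other cell types had calls too. By limma, 3 of 7 astrocyte markers, 3 of 9 oligodendrocyte markers, 3 of 5 endothelial markers and 4 of 8 skeletal muscle markers were called higher with 3-NPA, and 0 of these were called higher with Mn. On both Mn arrays only 4 of the 9 oligodendrocyte and 3 of the 5 endothelial markers were well above background, against all of them with 3-NPA. The others passed the filter only through the 3-NPA arrays, so these counts support no direction. Levels were also summed on the linear scale (75th percentile = 1) over all markers of a type on the array, including those not tested. For astrocytes the sums were 9.21 and 10.3 with Mn and 14.5 and 15.5 with 3-NPA. For skeletal muscle they were 2.54 and 2.24 against 4.90 and 4.90. Control cells had 19.2 and 18.5 for the astrocyte markers, above both toxins, and 1.76 and 1.51 for the muscle markers, below both. For oligodendrocytes the sums were 0.42 and 0.48 against 0.53 and 0.57, and for endothelium 0.68 and 0.64 against 0.96 and 0.93. For 8 microglial markers, 1 was called higher with Mn and 2 with 3-NPA, and for 7 fibroblast and mural markers 3 and 3. Of 3 neural progenitor markers tested, 1 was called in each direction. The sums over all 9 on the array were higher with Mn (20.6 and 21.2) than with 3-NPA (15.6 and 14.9). Fewer or more cells of a type and less or more RNA per cell cannot be told apart in these bulk samples. What part these markers have in the neuronal and low-level calls was not tested.

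**Figure D5:**
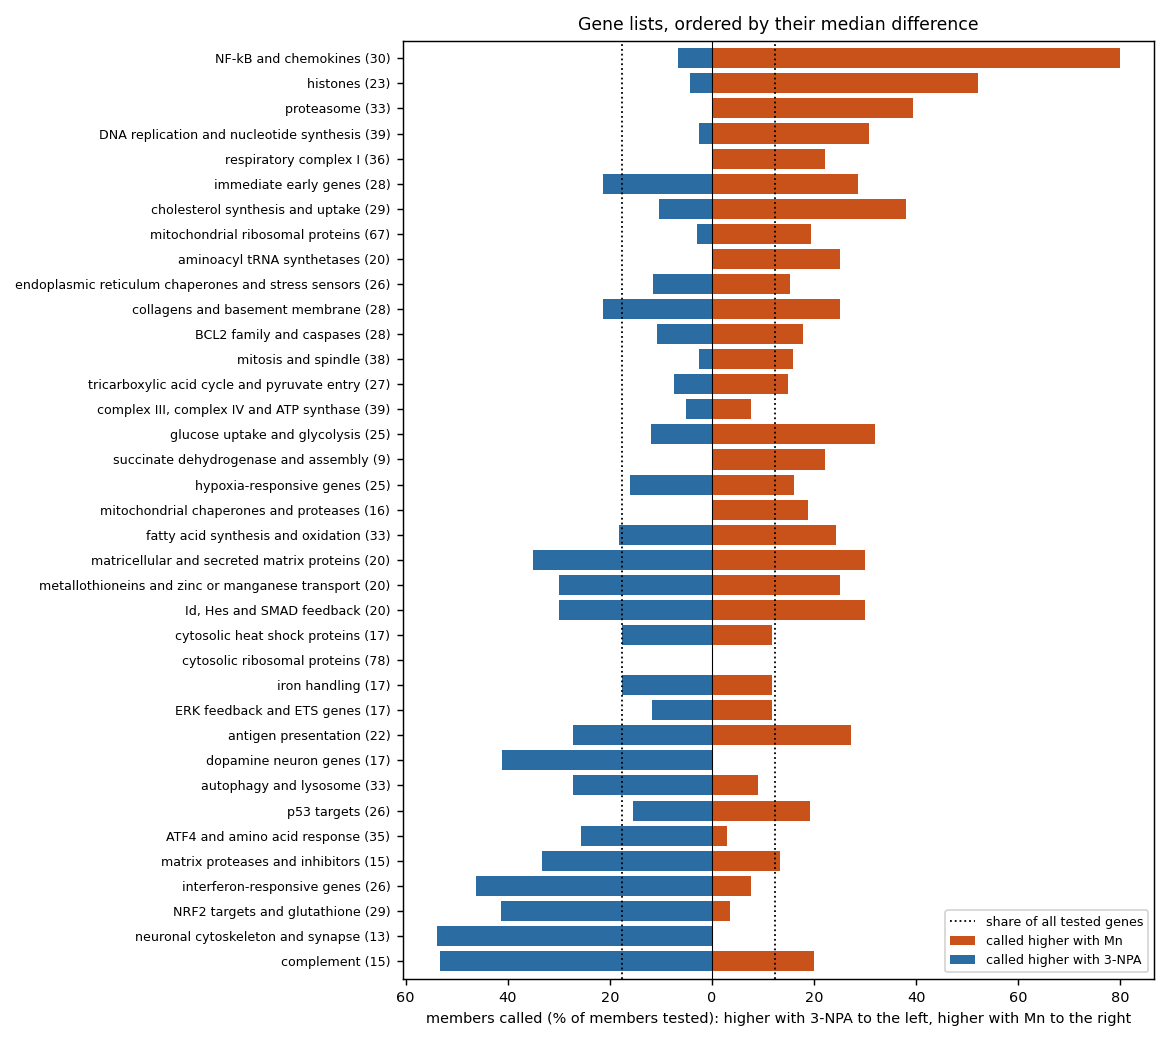
Share of the tested members of each of the 37 gene lists (% of members, number tested in brackets) called higher with 3-NPA (blue, to the left) and higher with Mn (orange, to the right), ordered by the median difference of the list. Dotted lines mark the shares of all 16514 genes, 17.7% and 12.3%; the NF-kB and chemokine list reaches 80.0% toward Mn, and the cytosolic ribosomal proteins have 0 of 78 members called.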

How the data were processed

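The data are 8 single-colour Agilent arrays, 2 each of control, Mn, MPP+ and 3-NPA cells, grouped by their titles and treatment labels. The spot intensity values were made by the authors with Agilent Feature Extraction 11.5.1.1 and a 1-colour protocol that subtracts background, per the file headers, which name build rn4 for probe positions. The log2 values of the deposited table correlated with these intensities on the log2 scale, at 0.997 for the lowest array, and served as an alternative, and neither their centring nor their scale is stated in the sources used here. Control spots and outlier spots were left out, spots of a probe were averaged, and the log2 intensity was taken minus the 75th percentile of each array. Of 30328 probes, 18939 were well above background on both Mn or both 3-NPA arrays, and for each gene the brightest was used, giving 16514 genes, 11900 of them named. Symbols were updated through RefSeq, which matched 18801 of 30367 probes (61.9%). Group means of all 8 arrays were fitted with limma 3.58.1 in R 4.3.3 (lmFit and eBayes, 4 residual and 2.16 prior degrees of freedom), with Benjamini-Hochberg adjustment. The fit was also run on simulated data, with no outcome reported here. The number of arrays limits the precision. No spot was saturated (0 on each array). Promoter windows came from RefSeq, build GRCr8.

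Named genes were the 15 largest called differences in each direction with arrays that did not overlap, up to 3 called members per list and direction by p-value, and a set of fixed genes. Genes named beyond this rule are said to be so. Some genes are not reported here. The members and the lists were chosen with earlier results of these data known. The alternatives changed the background correction, scaling, source of values, filter, probes, variance model, arrays in the fit and replicate block, and left out each array in turn. Leaving out either MPP+ array gives the same fit as the 6 control, Mn and 3-NPA arrays, since a group of 1 array adds no spread. Leaving out either control array likewise gives the same fit. Counts out of 22 or 21 alternatives thus hold some fits more than once.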

Additional observations from a re-analysis of the deposited data

How the results depend on the processing

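No named gene past the threshold changed sign under the alternatives run, but the side with more calls did with median scaling, and the medians of 13 of 37 lists changed sign under at least 1 scaling, background, filter or source alternative. The count of called genes (4941) stayed within 1.5 times its value with normexp, quantile normalization, the deposited table, the other filters on dim probes and the other variance models. Scaling by the array median, which turned the majority of calls toward Mn, gave 3566 genes higher with Mn and 1751 higher with 3-NPA. Without a filter on dim probes 1250 were higher with Mn. A 2-fold minimum on the measured difference, with no bound for dim signals, left 1467 genes, 291 higher with Mn and 1176 higher with 3-NPA. Leaving out 1 array at a time gave 2312 to 5450 calls, of which 792 to 2225 were higher with Mn and 1515 to 3225 higher with 3-NPA, lowest without a 3-NPA array. Mn and 3-NPA arrays with the same replicate number deviated together (r = 0.486), but the labels state no pairing. The replicate block gave 4706 calls, of which 4456 were shared with the fit without it. The block in the 4 Mn and 3-NPA arrays alone gave 5006, of which 4087 were shared. Fitting the 6 control, Mn and 3-NPA arrays, an alternative chosen after seeing the data, gave 3815. Of 220 named genes, 50 and 51 lost their call without 3-NPA replicates 1 and 2. The 220 include fixed genes that were not called in the main fit and so had no call to lose. The alternative without saturated probes was not run, as 0 spots were saturated. Genes not well above background in a group have only a bound there.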
